A study of Rattus norvegicus with 2 samples.

Results

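A set of 10 autophagy genes was followed in clone E4 of RMT-1, a cell line from a mammary tumour of the rat: Ulk1, Ulk2, Wipi1, Becn1, Sqstm1, Map1lc3b, Gabarap, Atg5, Atg7 and Atg12. They were taken by name, as the gene probes of both arrays that carry a RefSeq transcript of one of these genes. The 10 genes had 13 probes and 25 spots on each array, out of 30367 gene probes, and all 10 were among the 9026 named genes measured on both arrays. One group was transfected with a negative control siRNA and the other with an siRNA against Pla2g4c, a cytosolic phospholipase A2, and each group was 1 one-colour Agilent array of total RNA from the same clone. The time after transfection and the number of cultures behind each RNA are not given in the sources used here. With no second array in either group, no replicate check or test exists and no p-value is given.

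Macroautophagy encloses cytoplasm in a double membrane and delivers it to the lysosome. The ULK kinases start the process and pass the signal to a lipid kinase complex built on Beclin 1, whose product, phosphatidylinositol 3-phosphate, recruits WIPI proteins to the growing membrane. ATG7 is the E1-like enzyme of a pair of ubiquitin-like reactions, of which one joins ATG12 to ATG5 and the other joins LC3 and GABARAP proteins to phosphatidylethanolamine. Receptors such as p62, encoded by Sqstm1, bind cargo and LC3 together and are degraded with it, so a transcript level is not a measure of autophagic flux.

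Within this set of 10, the genes that differed most between the arrays were Ulk1 and Ulk2, which were lower after the Pla2g4c siRNA, and Wipi1, which was higher. The RefSeq bases in front of their transcription starts (build GRCr8, 250 bases each, strand of the gene) are shown so that these promoters can be set beside each other. Capitals mark matches to any of 6 short motifs, searched on both strands: CACGTG, the core of the CLEAR element bound by Tfeb, TGACNNNGC, the core of the antioxidant response element, GTAAACA, a forkhead site, TGACGTC, from the cAMP response element, GGGGCGGGG, an Sp1 site, and CCAAT. The Ulk1 bases lie at chr12:51511242-51511491 on the plus strand, those of Ulk2 at chr10:47029845-47030094 and those of Wipi1 at chr10:95079294-95079543, both on the minus strand.
Ulk1: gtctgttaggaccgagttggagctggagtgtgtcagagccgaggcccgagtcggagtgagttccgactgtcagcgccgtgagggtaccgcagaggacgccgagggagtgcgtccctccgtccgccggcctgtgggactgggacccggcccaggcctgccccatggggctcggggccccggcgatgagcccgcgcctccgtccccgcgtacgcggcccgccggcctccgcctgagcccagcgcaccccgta
Ulk2: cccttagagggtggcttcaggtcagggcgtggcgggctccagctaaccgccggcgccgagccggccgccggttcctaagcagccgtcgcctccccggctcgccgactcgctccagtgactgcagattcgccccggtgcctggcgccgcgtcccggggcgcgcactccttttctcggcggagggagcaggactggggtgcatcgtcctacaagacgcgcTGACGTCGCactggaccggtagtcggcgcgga
Wipi1: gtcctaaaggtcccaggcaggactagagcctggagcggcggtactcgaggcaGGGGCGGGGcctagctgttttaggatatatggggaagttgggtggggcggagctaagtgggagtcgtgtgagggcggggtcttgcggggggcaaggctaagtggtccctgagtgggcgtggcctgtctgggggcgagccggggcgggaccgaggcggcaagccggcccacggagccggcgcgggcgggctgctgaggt

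Ulk1 held none of the 6 motifs in this window. Ulk2 held TGACGTCGC from 32 to 24 bases before the start, where TGACNNNGC and TGACGTC overlap, and Wipi1 held GGGGCGGGG from 198 to 190 bases before it. Of 33469 rat promoters in the table, 3373 held TGACNNNGC, 2.80% TGACGTC and 9.0% GGGGCGGGG. Both kinase promoters were rich in G and C, at 73.6% for Ulk1 and 71.6% for Ulk2, and Wipi1 was at 69.6%, against a median of 51.2% over all promoters. CpG dinucleotides numbered 30, 34 and 20 in the 3 windows, against a median of 5.

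A promoter was found for 9 of the 10 genes, and a single one, that of Atg5, held CACGTG, which 5.59% of all promoters hold. It is shown because the CLEAR core is the motif most tied to autophagy genes. Its last 60 bases before the start lie at chr20:49380775-49380834 on the plus strand, with CACGTG from 19 to 14 and TGACGTC from 7 to 1 bases before the start.
Atg5: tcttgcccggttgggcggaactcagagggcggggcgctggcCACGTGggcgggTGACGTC

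Among the other promoters, Gabarap held GCGATGTCA, a reverse-strand match of TGACNNNGC, and GGGGCGGGG, and Atg7 held ATTGG, the reverse of CCAAT, which 11385 of the 33469 promoters hold. The Atg7 window stood apart in composition, with 48.0% G and C and 2 CpG dinucleotides. No member's window held GTAAACA, which 3.21% of all promoters hold. A match describes these letters and is not evidence of binding.

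Each array's signal was divided by its own 75th percentile over gene spots, 852 (control) and 1105 (Pla2g4c siRNA), and a level below is in multiples of that percentile. A difference is log2 of the Pla2g4c siRNA level over the control level. The ± beside it is the error estimated by the scanner's software, which covers technical error within the arrays and not the spread between cultures. None of the 25 member spots was flagged as an outlier or saturated, and all were well above background on both arrays. Of all gene spots, 61.9% (control) and 63.1% (Pla2g4c siRNA) were well above background. No probe could be named as Pla2g4c, so the siRNA's own target was not analysed here and does not check the labels. Measured epithelial markers were 8 of 9, among them the keratins Krt5, Krt14 and Krt17 at 186, 345 and 173 on the control array against 56.5, 176 and 56.0 on the Pla2g4c siRNA array. Epcam and Krt8 were higher on that array, at 4.71 against 2.31 and 0.0555 against 0.0306, and the part of these marker differences in the autophagy values was not tested. Measured leukocyte, endothelial and fibroblast markers were 3 of 8, 1 of 5 and 2 of 7, none above 0.602 on either array. Not well above background on either array were the leukocyte gene Ptprc, the endothelial gene Pecam1 and the fibroblast genes Col3a1 and Dcn, as well as 4 of 5 milk protein genes. In RNA of a whole culture, fewer cells with a transcript and less of it per cell cannot be told apart.

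The initiating kinases and the E1-like enzyme were lower after the Pla2g4c siRNA, the WIPI gene was higher, and the remaining 6 genes differed by less than 1.5-fold. Of the 10 genes, Wipi1 was at least 2-fold higher, where 2.91% of all measured genes were, and Ulk1 and Ulk2 were at least 2-fold lower, where 3.05% were. At 1.5-fold the counts were 1 higher and 3 lower, with Atg7 joining the kinases, against 8.69% and 10.3% of all genes. The 10 differences ran from -1.15 to 1.11 with a median of -0.07, 5 above 0 and 5 below, and the median over all genes was -0.01. The genes were picked with the values of Ulk1, Ulk2 and Wipi1 already known, so these counts describe the set and do not test it.

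**Figure D1:**
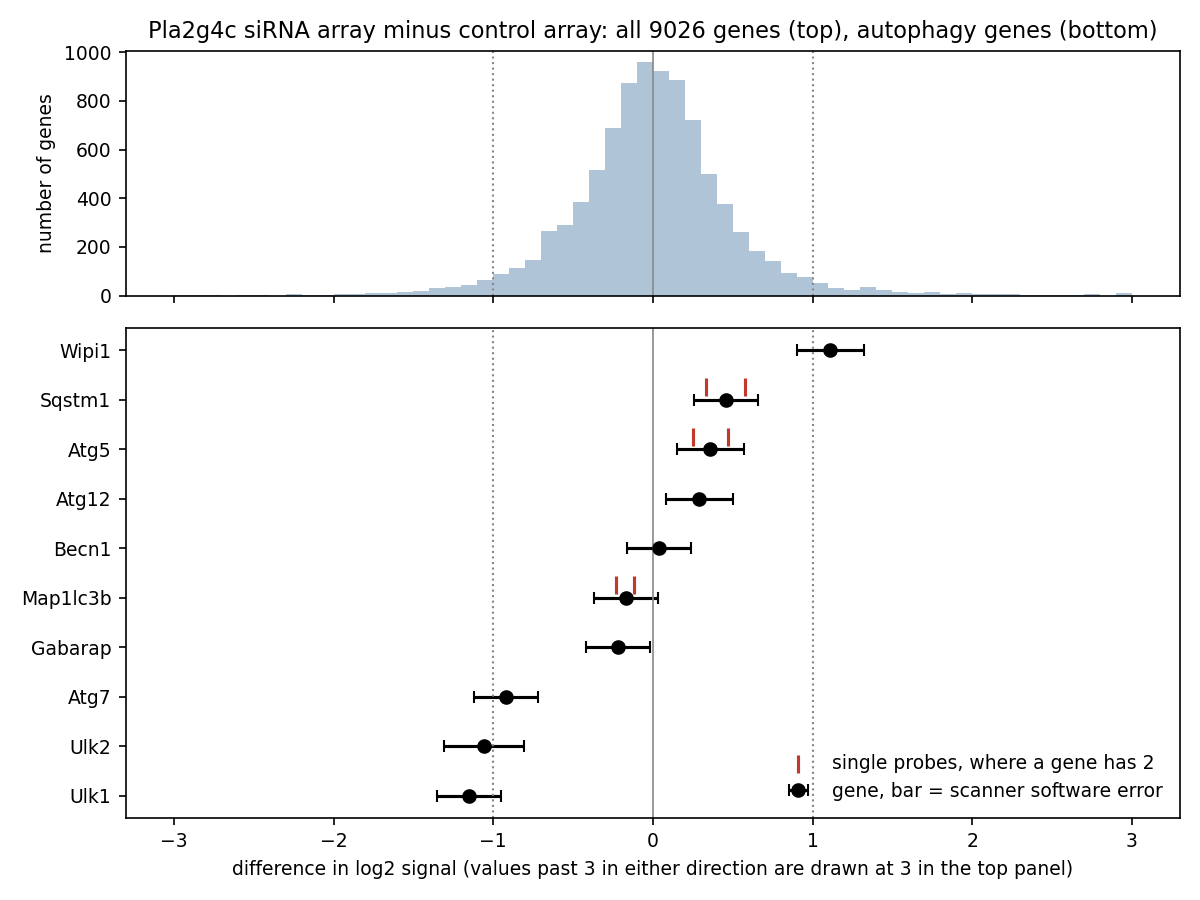
The top panel counts all 9026 measured genes by their difference in log2 signal, and the bottom panel gives the 10 autophagy genes, with bars for the scanner software's error, red ticks for the single probes of the 3 genes with 2 probes, and dotted lines at 2-fold. Wipi1 lies at 1.11, Ulk1, Ulk2 and Atg7 between -1.15 and -0.92, and the other 6 between -0.22 and 0.46.

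The direction of a small difference depended on how the arrays were scaled. In the authors' deposited values, which are each array's signal times a constant, the median over all genes was 0.12, and after scaling to 7 spike-in RNAs it was 0.54. Of all genes at least 2-fold apart, 48.9% were higher with 75th-percentile scaling, 65.9% in the deposited values and 94.5% with the spike-in RNAs. Each difference is thus read against the other genes of its array, not as an absolute amount.

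Ulk1 encodes the serine/threonine kinase that starts autophagosome formation, and was the lowest of the 10 genes. Its probe (NM_001108341) read 7.29 and 7.09 in its 2 control spots and 3.33 and 3.14 after the Pla2g4c siRNA. Before scaling these were processed signals of 6206 and 6039 against 3680 and 3469. Both Pla2g4c siRNA spots lay below both control spots with or without the scaling, although the Pla2g4c siRNA array was the brighter array. The level was 2.22-fold lower (-1.15 ± 0.20), at rank 183 from the lowest of 9026 genes. The difference between any control spot and any Pla2g4c siRNA spot was at least 1.09 in size, while spots on 1 array lay at most 0.09 apart.

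Ulk2, the close relative of Ulk1, was lower by a similar ratio but rested on 1 dim spot. Its probe (NM_001191645) read 0.0759 on the control array against 0.0365 on the Pla2g4c siRNA array, or processed signals of 64.7 and 40.3. The level was 2.08-fold lower (-1.06 ± 0.25), at rank 234 from the lowest. With normexp background correction, which adds an offset to every spot, the difference was -0.63, and in the authors' deposited values it was -0.93.

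The scaffold partners of these kinases were close to 0. Rb1cc1, which encodes FIP200, differed by -0.20 ± 0.21 and Atg101 by 0.17 ± 0.20, and no probe could be named for Atg13. The complex thus had 2 of 4 measured genes at least 2-fold lower, both of them kinases, and 0 higher, against 3.05% and 2.91% of all genes. The values of both kinases were known when the list was drawn up, so the count and the median do not test the complex. The lower count was 1 of 4 under normexp correction, cyclic loess and in the deposited values, and 0 with the spike-in RNAs. Its median was -0.63, and scaled to the spike-in RNAs it was -0.08.

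**Figure D2:**
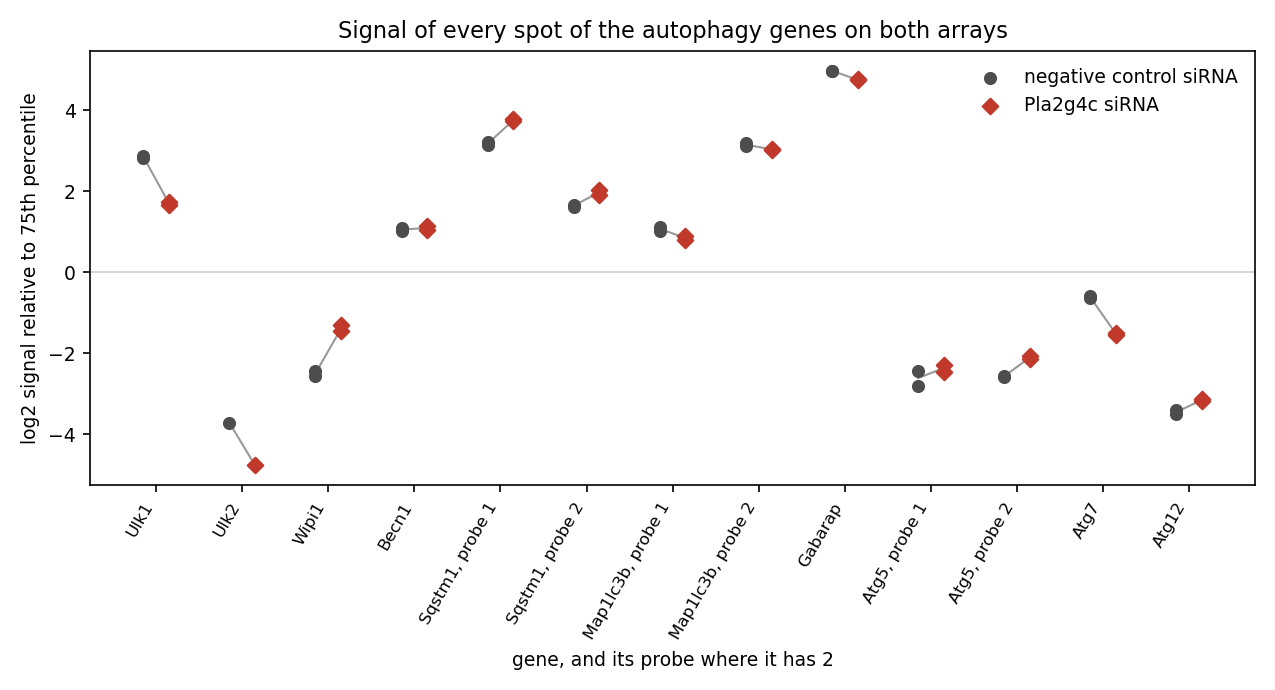
Each point is 1 spot of a member probe, grey circles on the control array and red diamonds on the Pla2g4c siRNA array, as log2 signal relative to the 75th percentile of the array, with lines joining the means. Heights compare the arrays within a probe and not 1 gene with another; the spots of Ulk1, Wipi1 and Atg7 separate by far more than spots on 1 array, and those of Becn1 overlap.

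Wipi1 encodes a protein that binds phosphatidylinositol 3-phosphate on the forming autophagosome, and it was the highest of the 10 genes. Its probe (NM_001127297) read 0.170 and 0.184 in the control spots and 0.402 and 0.362 in the Pla2g4c siRNA spots. Both Pla2g4c siRNA spots were above both control spots. The level was 2.16-fold higher (1.11 ± 0.21), at rank 209 from the highest of 9026 genes. The 4 possible pairs of spots gave differences from 0.98 to 1.24. Under normexp background correction the difference was 0.81, under the 2-fold line.

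All 4 genes of its family were above 0, against 49.0% of all genes. Wipi2, which links phosphatidylinositol 3-phosphate to the ATG16L1 complex, was 1.61-fold higher (0.68 ± 0.20), and Wdr45 and Wdr45b, which encode WIPI4 and WIPI3, differed by 0.32 ± 0.20 and 0.15 ± 0.21. Each of the 4 was also above 0 and above the median of all genes under each alternative processing that measured it, and 2 of them were not among the probes above the median signal. Part of this was fixed in advance. Scaling to the array median, by the deposited constants or to the spike-in RNAs shifts all genes alike, so their side of that median could not change. Each of the 4 had 1 probe, so taking the brightest probe could not change its value. Under normexp correction Wdr45b was at 0.04. The wider group adds the lipid transfer and scramblase proteins that feed the membrane. Of its 9 measured genes 1, Wipi1, was at least 2-fold higher and 0 were lower, against 2.91% and 3.05% of all genes. The group's median was 0.23. The value of Wipi1 was known when this list was drawn up, so the count does not test the group. Genes of the group outside the WIPI family ran from -0.24 ± 0.20 for Tmem41b to 0.57 ± 0.21 for Atg2a, a lipid transfer protein. Vmp1 was at 0.23 and Atg9a at 0.16.

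Becn1 encodes Beclin 1, the core of the lipid kinase complex, and was the gene nearest to 0. Its probe (NM_053739) read 2.03 and 2.12 on the control array against 2.20 and 2.07 on the Pla2g4c siRNA array, so the spots of the groups overlapped. The difference was 0.04 ± 0.20. With the spike-in RNAs, a scaling that raises all genes alike, it was 0.59.

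Its partners were similar, with 1 exception. The lipid kinase Pik3c3 differed by 0.17 ± 0.20, the adaptor Atg14 by 0.35 ± 0.20, Nrbf2 by 0.20 ± 0.20 and Ambra1 by 0.06 ± 0.20. Uvrag, the adaptor of the alternative, endosomal form of the complex, was 1.67-fold lower (-0.74 ± 0.27), but dim, and was at -0.48 under normexp correction. None of the 6 measured genes of this list was 2-fold apart, against 5.96% of all genes, and the list median was 0.11.

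Bcl2, whose protein binds and restrains Beclin 1, was 3.37-fold lower (-1.75 ± 0.22), with control spots of 0.175 and 0.186 and Pla2g4c siRNA spots of 0.0490 and 0.0585. Under the alternative processings the difference was between -1.76 and -1.18. Mcl1, which also binds Beclin 1, was at -0.82 ± 0.20, while Bcl2l1 was at 0.44 ± 0.21 and Bcl2l2 at 0.21 ± 0.21. The 4 genes therefore did not share a direction.

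Among the conjugation genes, Atg7 was lower, while Atg5 and Atg12 were above 0 by less than 1.5-fold. The Atg7 probe (NM_001012097) read 0.644 and 0.669 on the control array against 0.342 and 0.353 on the Pla2g4c siRNA array. Both Pla2g4c siRNA spots were below both control spots. The level was 1.89-fold lower (-0.92 ± 0.20), at rank 344 from the lowest, with spot pairs from -0.97 to -0.87. Outside spike-in scaling, where it was -0.37, the alternatives gave -0.94 to -0.78, so Atg7 stayed short of 2-fold in each of them.

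Atg5, the acceptor of ATG12, had 2 probes of the same transcript (NM_001014250). One read 0.168 and 0.166 against 0.239 and 0.224, with the Pla2g4c siRNA spots above the control spots. The other read 0.184 and 0.143 against 0.205 and 0.182, and here the groups overlapped. The probes gave differences of 0.47 and 0.25, and the gene 0.36 ± 0.21. Under normexp correction it was 0.19.

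Atg12, the ubiquitin-like protein joined to ATG5, was dim. Its probe (NM_001038495) read 0.0939 and 0.0881 on the control array against 0.113 and 0.110 on the Pla2g4c siRNA array. The spots did not overlap, and the difference of 0.29 ± 0.21 was a little over its error. Under normexp correction it was 0.03.

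The E2-like enzymes Atg3 and Atg10 differed by -0.22 ± 0.20 and 0.24 ± 0.21, and the probes of Atg10 went opposite ways, at -0.22 and 0.70. Atg16l1, the scaffold of the ATG5 complex, was at 0.20 ± 0.21. The proteases that prime and release LC3 were at -0.17 (Atg4a), 0.73 (Atg4c) and -0.32 (Atg4d), and the dim Atg4c was at -0.05 under normexp correction. Of the 10 measured conjugation genes 0 were 2-fold apart, against 5.96% of all genes. The median of the 10, 0.22, was -0.01 under normexp correction.

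Map1lc3b encodes LC3B, the protein most used to mark autophagosomes. Its first probe (NM_022867) read 2.18 and 2.02 on the control array against 1.85 and 1.73 on the Pla2g4c siRNA array, and the second read 8.65 and 9.06 against 8.06 and 8.29. In both probes the Pla2g4c siRNA spots were below the control spots, by -0.23 and -0.12. Before scaling, the first probe's signals were 1856 and 1724 on the control array against 2042 and 1912 on the Pla2g4c siRNA array. Those of the second were 7371 and 7717 against 8903 and 9159, so the lower side appears with the scaling. The gene differed by -0.17 ± 0.20, within its error. With the spike-in RNAs it was 0.37.

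Gabarap encodes an LC3 relative that binds the ULK complex and late autophagosomes. Its probe (NM_172036) read 31.3 and 31.5 on the control array against 27.1 and 26.8 on the Pla2g4c siRNA array, a difference of -0.22 ± 0.20. Spots of 1 array lay within 0.01 of each other, so the arrays did not overlap. The direction depended on the scaling: quantile normalization gave 0.13, cyclic loess 0.08 and the spike-in RNAs 0.33. Before scaling the Gabarap signals were 26653 and 26849 on the control array against 29918 and 29609 on the Pla2g4c siRNA array, so the lower side appears with the scaling.

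The other genes of the Atg8 family were Map1lc3a at 0.37 ± 0.20, Gabarapl1 at 0.27 ± 0.20 and Gabarapl2 at -0.03 ± 0.20, whose 3 probes ran from -0.41 to 0.16. None of the 5 was 1.5-fold apart, where 8.69% of all genes were higher and 10.3% lower by at least that much. The family median was -0.03, and it was 0.13 under quantile normalization.

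Sqstm1, the p62 receptor and also a target of Nrf2, was the second highest of the 10 genes. The probe of one transcript (NM_175843) read 9.21 and 8.76 on the control array against 13.7 and 13.2 on the Pla2g4c siRNA array, and that of the other (NM_181550) read 3.06 and 3.17 against 3.72 and 4.11. In both probes every Pla2g4c siRNA spot was above every control spot, by 0.58 and 0.33. The gene was 1.37-fold higher (0.46 ± 0.20), at the 87.2 percentile of all differences. The alternatives without spike-in scaling gave 0.45 to 0.61.

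Of the 13 measured cargo receptors 0 were 2-fold apart, against 5.96% of all genes, and the list median was -0.03. The mitophagy receptor Bnip3 was the highest at 0.77 ± 0.20, followed by Calcoco1 at 0.75 ± 0.20, a receptor for endoplasmic reticulum and Golgi. Ncoa4, the receptor for ferritin, was the lowest at -0.90 ± 0.21. Sqstm1's nearest relative in function, Nbr1, was at -0.03 ± 0.20, Tax1bp1 at 0.02 ± 0.20 and Optn at 0.31 ± 0.20. Fundc1, a mitophagy receptor, was well above background on the control array only, at 0.0377. It read 0.0125 on the Pla2g4c siRNA array, 3.01-fold lower, but that reading was not well above background. The ratio rests on 1 dim probe and is an estimate, not a bound.

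Among genes of fusion with the lysosome, Snap29 stood out from the other 10 measured genes. Snap29 encodes a SNARE that joins syntaxin 17 on the autophagosome to VAMP8 on the lysosome. Its spots read 1.38 and 1.42 on the control array against 0.520 and 0.521 on the Pla2g4c siRNA array, 2.69-fold lower (-1.43 ± 0.20). Scaled to the spike-in RNAs, Snap29 was at -0.88. Its SNARE partners Stx17 and Vamp8 were at 0.26 ± 0.21 and 0.35 ± 0.20. The list median was 0.05, with Vps39 highest at 0.43 ± 0.21. Under normexp correction Vps39 was at 0.14, Stx17 at 0.04 and Vamp8 at 0.36.

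Across the 7 lists of autophagy machinery, from the ULK complex to fusion, 48 genes other than the 10 were measured. None was at least 2-fold higher and 1, Snap29, was at least 2-fold lower, against 2.91% and 3.05% of all genes. Of the 48, 28 were above 0, against 49.0% of all genes, and the median of the 48 was 0.07. With the spike-in RNAs 6 of the 48 were at least 2-fold higher, 0 were lower and 45 were above 0. With that scaling the shares of all genes were 13%, 0.753% and 88.5%. In the deposited values 38 of the 48 were above 0, against 62.8% of all genes. These lists were drawn up with earlier results on Ulk1, Ulk2 and Wipi1 known.

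**Figure D3:**
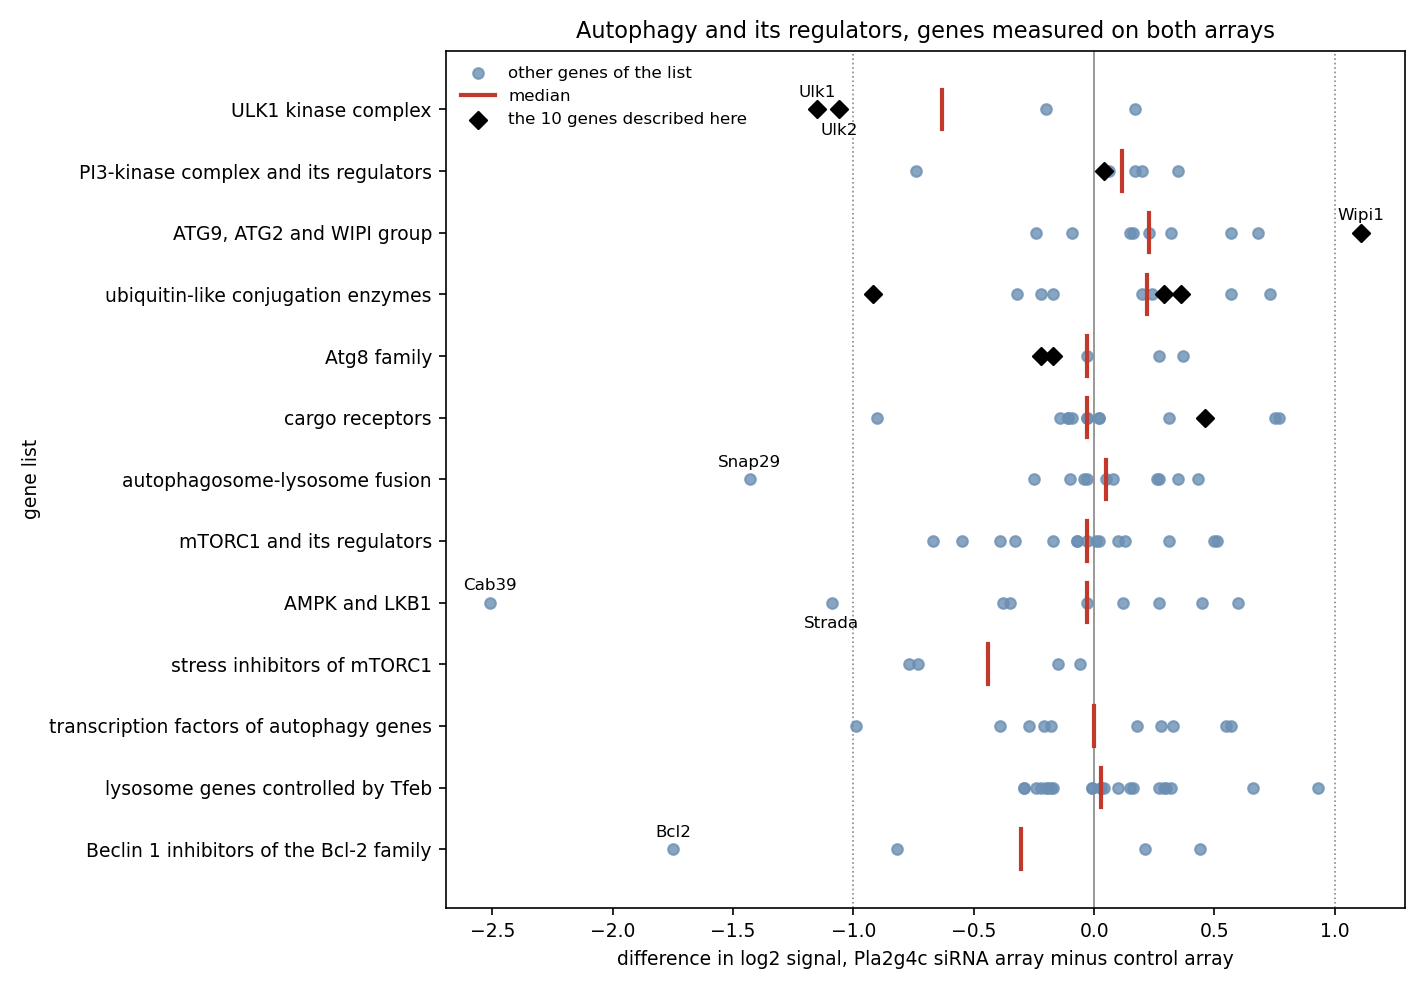
Each row is a list of autophagy genes or regulators and each point a gene measured on both arrays, placed by its difference in log2 signal, with black diamonds for the 10 genes and a red line at the list median. The genes at least 2-fold apart are named: Ulk1, Ulk2, Snap29, Cab39, Strada and Bcl2 on the lower side and Wipi1 on the higher.

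ULK1 is activated by AMPK, which in turn is switched on by the LKB1 complex, and is held back by mTORC1. Cab39 and Strada, which encode the partners that activate LKB1, were 5.71-fold (-2.51 ± 0.20) and 2.13-fold lower (-1.09 ± 0.20). The Cab39 spots read 4.93 and 5.56 against 0.838 and 1.0, and both Strada probes were lower, by -1.11 and -1.08. Stk11, the kinase LKB1 itself, was at -0.38 ± 0.21, and Cab39l, listed with them, was near 0 at -0.03 ± 0.20. Stk11, Strada and Cab39 were below the median of all genes under each alternative processing that measured them. Part of this was fixed in advance. Scaling to the array median, by the deposited constants or to the spike-in RNAs shifts all genes alike, so their side of that median could not change. Taking the brightest probe could not change Stk11 or Cab39, with 1 probe each. With the spike-in RNAs 1 of the 3, Stk11, was above 0, against 88.5% of all genes. Strada was at -0.99 under cyclic loess and -0.96 in the deposited values.

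The AMPK subunits did not share this direction. Prkaa1, the catalytic subunit measured here, was the highest at 0.60 ± 0.21, which was 0.26 under normexp correction, and Prkab1 was at 0.45 ± 0.20 and Prkag1 at -0.35 ± 0.20. On neither array were Prkaa2 and Prkag3 well above background. Of the 9 measured genes of AMPK and LKB1, 2 were at least 2-fold lower and 0 higher, against 3.05% and 2.91% of all genes, and the median was -0.03. The lower count was 1 under cyclic loess, in the deposited values and with the spike-in RNAs.

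The list of mTORC1 and its regulators mixes activators with inhibitors such as the TSC complex and Akt1s1. Of its 15 measured genes 0 were 2-fold apart, against 5.96% of all genes, and the list median was -0.03. Mtor itself was at 0.31 ± 0.23, which was -0.02 under normexp correction, and its scaffold Rptor at 0.10 ± 0.20. The lowest was Lamtor4, of the lysosomal anchor of mTORC1, at -0.67 ± 0.20, and the highest was the GTPase Rraga at 0.51 ± 0.20. Genes that restrain mTORC1 under stress or low amino acids were below 0 in 4 of 4 measured cases, while 49.0% of all genes were above 0. Sesn3 at -0.77 ± 0.20 and Ddit4 at -0.73 ± 0.20 were lowest and Castor1 at -0.06 ± 0.20 highest. Castor1 was above 0 under quantile normalization, cyclic loess and in the deposited values, where 3 of 4 were below, and with the spike-in RNAs 2 of 4 were.

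Of the transcription factors that control autophagy genes, among them the repressor Zkscan3 at -0.21 ± 0.21, 0 of 10 measured were 2-fold apart. The share of all genes was 5.96%, and the list median was 0.00. Foxo3, a forkhead factor, was the lowest at -0.99 ± 0.23, 1.99-fold, and Hif1a the highest at 0.57 ± 0.20. Tfeb, the regulator of lysosome and autophagy genes, was at 0.55 ± 0.21 and Nfe2l2, which encodes Nrf2, at -0.39 ± 0.20. The 22 lysosome genes listed as targets of Tfeb were all measured, with a median of 0.03 and 0 at 2-fold, against 5.96% of all genes. Neu1, a sialidase, was the highest at 0.93 ± 0.20 and Hexa the lowest at -0.29 ± 0.20.

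Across 10 alternative processings of the signals, Ulk1, Ulk2 and Wipi1 kept their direction, but not always their place past 2-fold. Ulk1 was past 2-fold in 9 of 10, with -0.61 under spike-in scaling. Wipi1 was past it in 8 of the 9 that measured it and Ulk2 in 5 of 9. These counts include processings that could not move these genes. They are keeping outlier spots, dropping the filter on dim probes and taking the brightest probe. Restriction to probes above the median signal could only keep or drop a gene with a single probe. The sign changed under at least 1 alternative for Map1lc3b, in 1 of 10, and Gabarap, in 3 of 10.

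**Figure D4:**
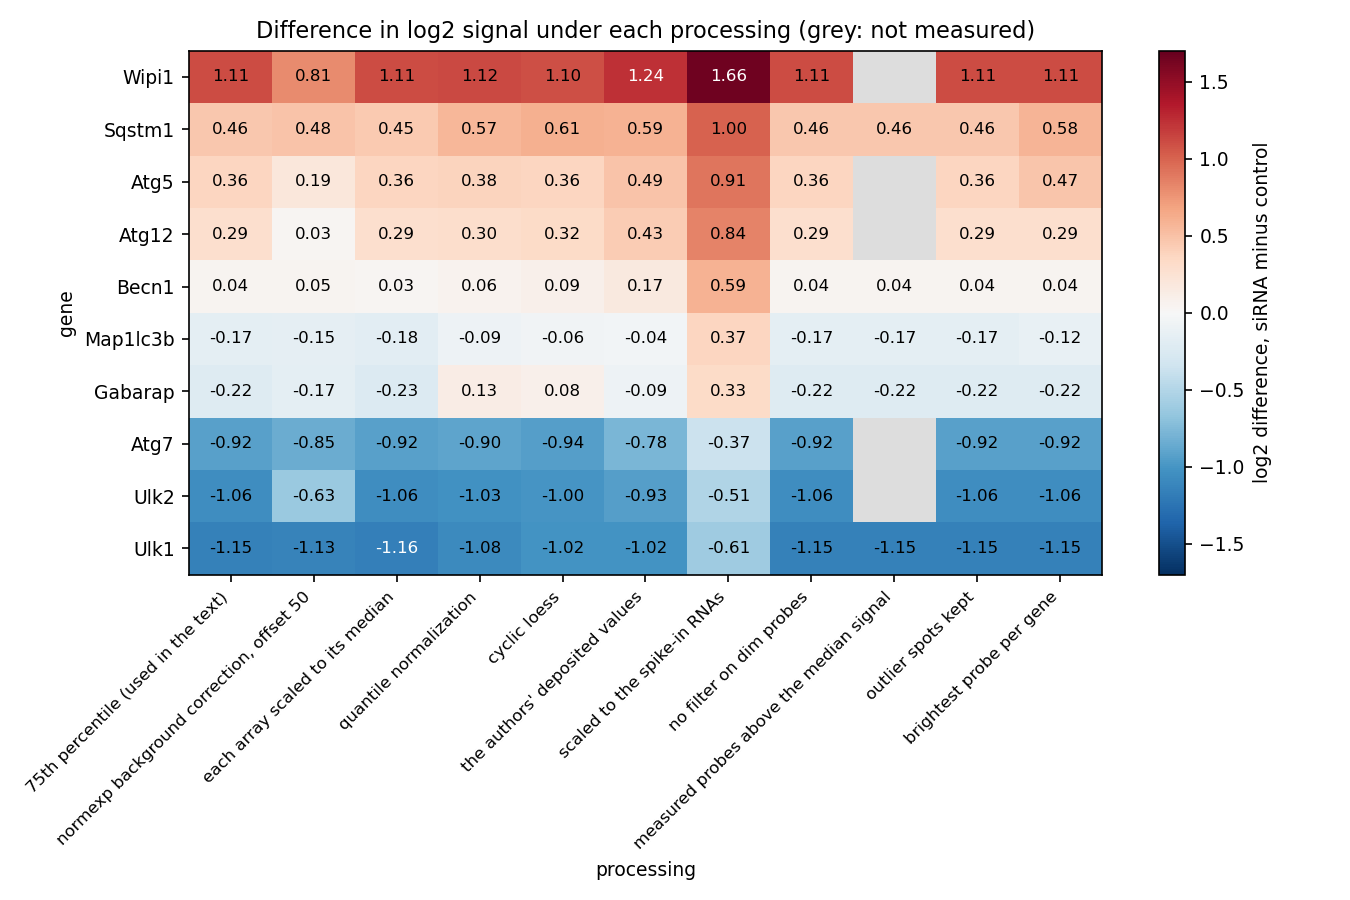
Rows are the 10 genes and columns the processings, with the difference in log2 signal (Pla2g4c siRNA minus control) in each cell, red above 0, blue below and grey where the gene was not measured. Ulk1, Ulk2 and Atg7 are blue and Wipi1, Sqstm1, Atg5, Atg12 and Becn1 red in every measured column, while Gabarap turns red under quantile normalization, cyclic loess and spike-in scaling.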

How the data were processed

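Per the labels, Cy3-labelled RNA of each group went on 1 Agilent rat array. The spot intensities on a linear scale and the 0 or 1 flags (other columns) were deposited as made by Agilent Feature Extraction (version 10.10.1.1 in the headers, and 10.10 per the submitters' processing notes), background-subtracted within the array. Outlier-flagged spots were dropped from both arrays, log2 signals were scaled to the 75th percentile of gene spots, spots averaged per probe and measured probes (well above background in all spots on both arrays) per gene. RefSeq accessions named 18006 of 30367 probes (59.3%). The deposited table of normalized intensities equalled the processed signal times 1.77 (control) and 1.50 (Pla2g4c siRNA), as computed from the values.

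Genes were counted at 2-fold and 1.5-fold. Named genes were all members and, in each pathway list, those at least 2-fold apart and the highest and lowest, with further genes chosen after their values were seen. Members, lists, motifs and alternatives were chosen with earlier results of these data known. Normexp (offset 50) used the median spot signal. Proteins, planned, are not shown. The percentile scaling and the averaging to probes and genes were tested on simulated spots with planted differences past 2-fold. The other steps were not tested in this way. R 4.3.3 with limma 3.58.1, Python 3.11.15, numpy 2.4.6, pandas 2.3.3 and matplotlib 3.10.9 were used.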

Additional observations from a re-analysis of the deposited data

How the results depend on the processing

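With 1 array per group, precision is limited by the number of arrays. Under normexp correction Wipi1 and the dim genes Ulk2, Atg12 and Atg4c, among others, moved by more than the software's error. Of 95 recomputed member differences, 80 stayed within the software's error, and part of these 80 was fixed in advance. Keeping outlier spots and dropping the filter on dim probes could not change any member. Taking the brightest probe could not change a member with a single probe. With the spike-in RNAs every member moved by more than the software's error. Of 130 recomputed list medians, 20 moved by at least that error. The count of members at least 2-fold higher (1) was 0 under normexp, among probes above the median signal and at a 3-fold threshold, and 2 with the spike-in RNAs. The count at least 2-fold lower (2) was 1 under normexp, cyclic loess, in the deposited values and among probes above the median signal, and 0 with the spike-in RNAs and at 3-fold. The members' median was 0.48 with the spike-in RNAs. Over all genes the higher and lower counts (263 and 275) were 116 and 154 under normexp, 1171 and 68 with the spike-in RNAs, 539 and 765 without the filter on dim probes, 79 and 119 among probes above the median signal, 784 and 929 at 1.5-fold and 85 and 65 at 3-fold. The last 4 pairs change the genes counted or the threshold by construction, and spike-in scaling raises every difference by the same amount. For the other changes the cause was not tested. No paired analysis was possible because each group is 1 array.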
